A study of Arabidopsis thaliana with 32 samples.

Results

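The 10 genes described here encode the cytosolic chaperones HSP101, HSP90 and HSP70 of Arabidopsis thaliana. They are HSP101 (AT1G74310), HSP90.1 (AT5G52640), HSP90.2 (AT5G56030), HSP90.3 (AT5G56010), HSP90.4 (AT5G56000), HSP70-1 (AT5G02500), HSP70-2 (AT5G02490), HSP70-3 (AT3G09440), HSP70-4 (AT3G12580) and HSP70-5 (AT1G16030), taken by gene ID from the 33602 genes of the count table. All 10 passed the filter on low values, which left 20145 genes for testing. RNA-seq was done on pools of about 25 whole Col-0 seedlings (wild type), grown for 3 days in constant white light of about 70 µE at 21 °C and then sampled 1, 3, 6 or 24 h after transfer. Of the 4 conditions, 30FR combined warmth (30 °C) with a simulated shade of R/FR 0.6, and 30WL was warmth (30 °C) in white light. The others were 21FR, with the shade light alone at 21 °C, and 21WL, in which seedlings stayed as they were grown. Every condition and time had 2 replicates, giving 16 groups and 32 libraries. No transgene or mutant was involved, and a whole seedling pools all organs, so a change in level per cell and a change in the share of a tissue cannot be told apart.

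HSP70 proteins bind exposed hydrophobic stretches of unfolded or newly made proteins and release them in cycles of ATP hydrolysis, assisted by J-domain partners and nucleotide exchange factors. HSP90 proteins act later, on nearly folded clients such as kinases and receptors. HSP101, the plant relative of yeast Hsp104, is a hexameric ATPase that pulls proteins out of aggregates together with HSP70, and Arabidopsis plants that lack it do not acquire tolerance to severe heat. Some members of each family are made in all growth conditions, and others are made mainly when heat shock factors bind the heat shock element, an array of alternating GAA and TTC units separated by 2 bases.

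The heat shock elements next to these genes are shown because the members differ in them. In the RefSeq annotation of TAIR10.1, the 250 bases before the outermost annotated gene start held the 2-unit element, GAANNTTC or its equivalent form TTCNNGAA, in 0 of the 10 members and in 16.1% of 27443 protein-coding genes. The window was therefore also set, after this was seen, to the 300 bases before the annotated translation start, which takes in 5′ untranslated sequence. There the 2-unit element was found in 6 of 10 members and in 22.8% of genes, and an element of 3 units in a row in 5 of 10 members and in 0.747% of genes. Both forms read the same on either strand as a 2-unit array, so both strands were covered, and every 3-unit element also contains 2-unit ones. In the 30-base stretches that follow, written 5′ to 3′ on the strand of the gene, capitals mark the element.
HSP90.1, chr5:21352257-21352286, plus strand: gaaaaGAACTTTCTGGAAttcgtttgctca
HSP70-1, chr5:556554-556583, minus strand: acaaccatcGAACATTCTCGAAacatttta
HSP70-2, chr5:552686-552715, minus strand: ataattacaGAACATTCTGGAAactcaagt
HSP70-3, chr3:2905894-2905923, minus strand: catcgaaccGAACATTCTCGAAccttttta
HSP70-3, chr3:2905765-2905794, minus strand: cgagccatcGAACCTTCTCGAAactcgagt
HSP70-4, chr3:3993846-3993875, minus strand: tttactcgtGAACGTTCTCGAAagctcttt
HSP70-5, chr1:5504458-5504487, minus strand: cacgaccttttTTCTCGAAatgtctcgttc

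HSP70-3 held 2 such elements, HSP70-5 held only the 2-unit form, and neither form was found in this window of HSP101, HSP90.2, HSP90.3 or HSP90.4. The element ended 282 bases before the annotated translation start in HSP90.1 and between 128 and 269 bases before it in the others. Of the 6 genes, only HSP90.1 had its element outside the annotated transcript. That transcript of 2103 bases is all coding, so the model has no untranslated sequence in which an element could lie. These are matches of letters, and binding was not measured.

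The genes differ in how far their reads can be told apart. HSP90.2, HSP90.3 and HSP90.4 lie close together on chromosome 5 between positions 22677338 and 22689671, with AT5G56020 annotated just before HSP90.2. HSP70-1 and HSP70-2 are neighbours on chromosome 5 between 550035 and 556623. Proteins translated from the RefSeq models of HSP90.2 and HSP90.3 were 99.1% identical, and those of HSP90.4 and these 2 genes were 97.4% and 97.7% identical, whereas HSP90.1 was 87.1% to 88.3% identical to the 3 others. HSP70-1 and HSP70-2 were 94.2% identical, and HSP70-5, at 82.9% to 85.6%, was the HSP70 furthest from the others. Reads were 50 bases long and reads with several matches were not counted. Of the 50-base stretches of the transcript, 18.8% in HSP90.2, 23.9% in HSP90.3 and 18.7% in HSP90.4 also occurred in another gene, which in each case was another of these 3 HSP90 genes, so their levels were underestimated by an unknown amount and are uncertain relative to each other. The share was 0.185% in HSP101, 0.221% in HSP70-3 and 0% in the other 5 members. HSP70-3 also overlapped the annotated gene AT3G02205 on the same strand by 122 bases.

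Libraries held 7606788 to 28170966 counts assigned to genes (median 18502913), and members had between 3.65 CPM (counts scaled to TMM-adjusted library totals) for HSP70-5 and 2188 CPM for HSP70-1 in 21WL. All 10 markers of the tissues a seedling holds, among them RBCS1A for photosynthetic cells, EXPA7 for root hairs and SUC2 for phloem companion cells, were detected in all 32 libraries, the lowest count being 14 for STM of the shoot meristem. A call below means an adjusted p (FDR, Benjamini-Hochberg over all 20145 genes, edgeR quasi-likelihood test) under 0.05 and an absolute log2 fold change over 1. None of the 10 markers was called in 30WL over 21WL at any time, and 2 genes of the light-harvesting antenna were called in other comparisons. LHCB1.3 was lower at 24 h in 30FR over 21WL (log2 fold change -1.42, edgeR FDR = 3.26e-07), in 30FR over 30WL (-1.23, edgeR FDR = 5.69e-06) and in the 30FR response relative to 1 h, and LHCA1 was higher in 30FR over 21FR at 3 h (1.20, edgeR FDR = 1.54e-05). Their part in the results for the members was not tested.

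Replicate 2 of 30WL at 3 h stood apart. Its level was 8.10 times that of replicate 1 for HSP101, 5.33 times for HSP90.1, 5.34 times for HSP70-5, 4.11 times for HSP70-4 and 3.51 times for HSP70-3, and for 9 of the 10 members this was the widest gap of all 16 groups. HSP90.4, the exception, had its widest gap (1.27 times) in 30FR at 3 h. In 30FR at 3 h replicate 1 was the higher one, by 2.18 times for HSP101 and 1.90 times for HSP90.1. Over all genes the 30WL replicates at 3 h were not the most unlike pair: the chi-square statistic per degree of freedom between their counts was 8.5, against a range of 2.99 to 20.9 over the 16 groups. The source of this gap was not tested, and the calls, counts and overlaps that use 30WL at 3 h are given with and without replicate 2.

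**Figure D1:**
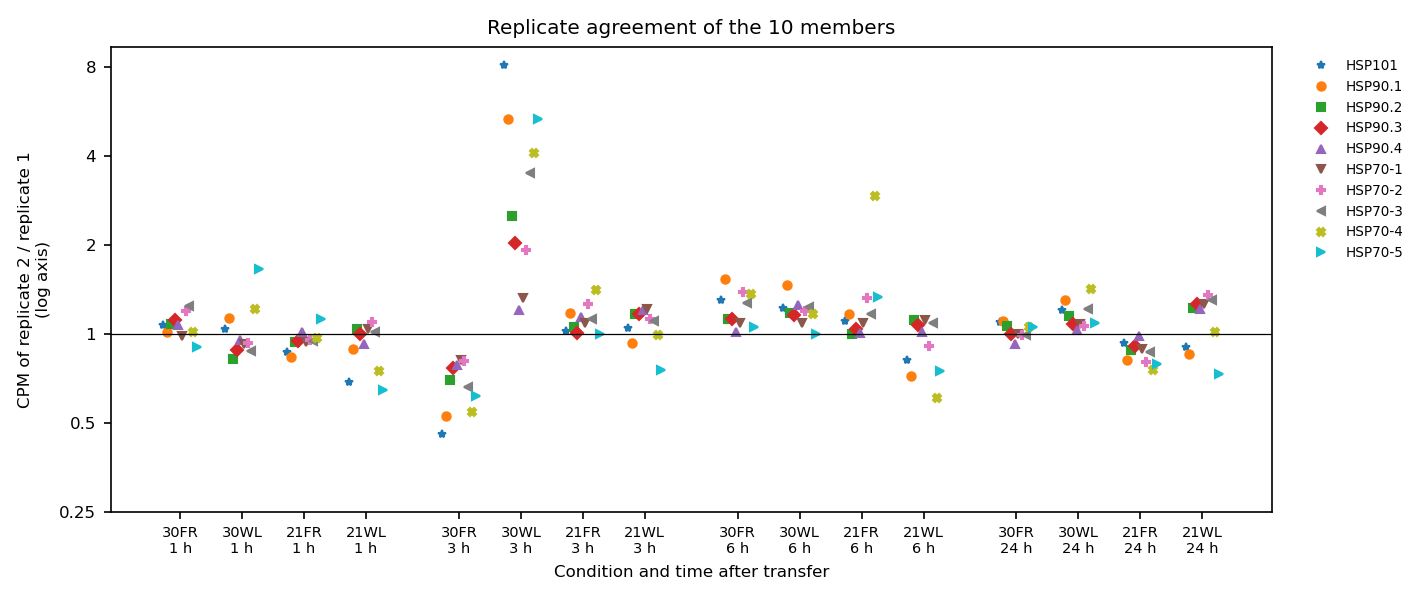
Level (CPM) of replicate 2 divided by that of replicate 1, on a log axis, for each of the 10 members in each of the 16 groups, ordered by time and within a time as 30FR, 30WL, 21FR and 21WL. In 30WL at 3 h the ratio reached 8.10 for HSP101, while in 30FR at 3 h all members lay below 1.

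In 21WL over all times HSP70-1, the main constitutive HSP70, was by far the most abundant member, with a mean of 824 CPM per kb of coding length (range over 8 libraries 635 to 1120), and it made up 63.2% of the summed level of the 10 genes. HSP90.2 (146 CPM per kb, range 109 to 188), HSP90.3 (135, range 99.2 to 179) and HSP70-3 (133, up to 184) came next, with ranges that overlapped. HSP70-4 (20.4), HSP90.4 (15.7), HSP70-2 (12.4), HSP90.1 (7.62) and HSP101 (6.44) formed a lower tier in which each range again overlapped that of its neighbours, and HSP70-5 was lowest at 2.88 CPM per kb, below every library of HSP101. At 1 h in 30FR the order was different: HSP70-1 averaged 1540 CPM per kb, HSP70-4 averaged 1055 and HSP90.1 averaged 556, so that HSP70-4 made up 25.5% and HSP90.1 13.5% of the sum in 30FR, against 2.12% and 0.636% in 21WL at 1 h. In 30WL at 1 h these shares were 22.5% for HSP70-4 and 11.7% for HSP90.1. Reads were counted over whole transcripts, of which the coding part differed between models. It was 2103 of 2103 bases in HSP90.1 and 1950 of 3222 in HSP70-3. Shares, order and sums per kb of coding length are therefore approximate between genes.

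Warmth raised a part of the set. At 1 h, 6 of 10 members were called higher in 30FR over 21WL and 4 of 10 in 30WL over 21WL, against 3.52% and 2.28% of all genes tested. The 4 genes called in both were HSP101, HSP90.1, HSP70-4 and HSP70-5, and HSP90.2 and HSP70-2 were called in 30FR only, although the difference between 30FR and 30WL was not called for either of these genes. By the FDR alone, 7 members were higher in each condition, against 15.6% of all genes in 30FR and 11.8% in 30WL. The median log2 fold change of the members was 1.10 in 30FR and 0.82 in 30WL, where the medians of all genes were -0.02 and -0.01. These 2 comparisons share their 21WL libraries.

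At 3 h, 3 of 10 members were called higher in 30FR over 21WL and 6 of 10 in 30WL, against 2.08% and 1.76% of all genes. By the FDR alone these counts were 4 and 8, against 12.3% and 10.4% of all genes. Without replicate 2 of 30WL at 3 h, the same 3 members were called and passed the FDR alone in 30WL (HSP101, HSP90.1 and HSP70-4), against 1.14% and 5.26% of all genes. At 6 h, 2 of 10 members were called higher in 30FR (2.05% of all genes) and 2 of 10 in 30WL (1.08%), and these were HSP90.1 and HSP70-4 in both. At 24 h, 4 of 10 were called higher in 30FR (1.72%) and 2 of 10 in 30WL (0.953%). In neither warm condition was a member called lower. All 4 libraries at 30 °C lay above all 4 at 21 °C for 8 members at 1 h, 7 at 3 h, 5 at 6 h and 5 at 24 h, where 18.7%, 16.4%, 15% and 13.6% of all genes did so. At 3 h this count was again 7 without replicate 2 of 30WL, with 18.1% of all genes.

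**Figure D2:**
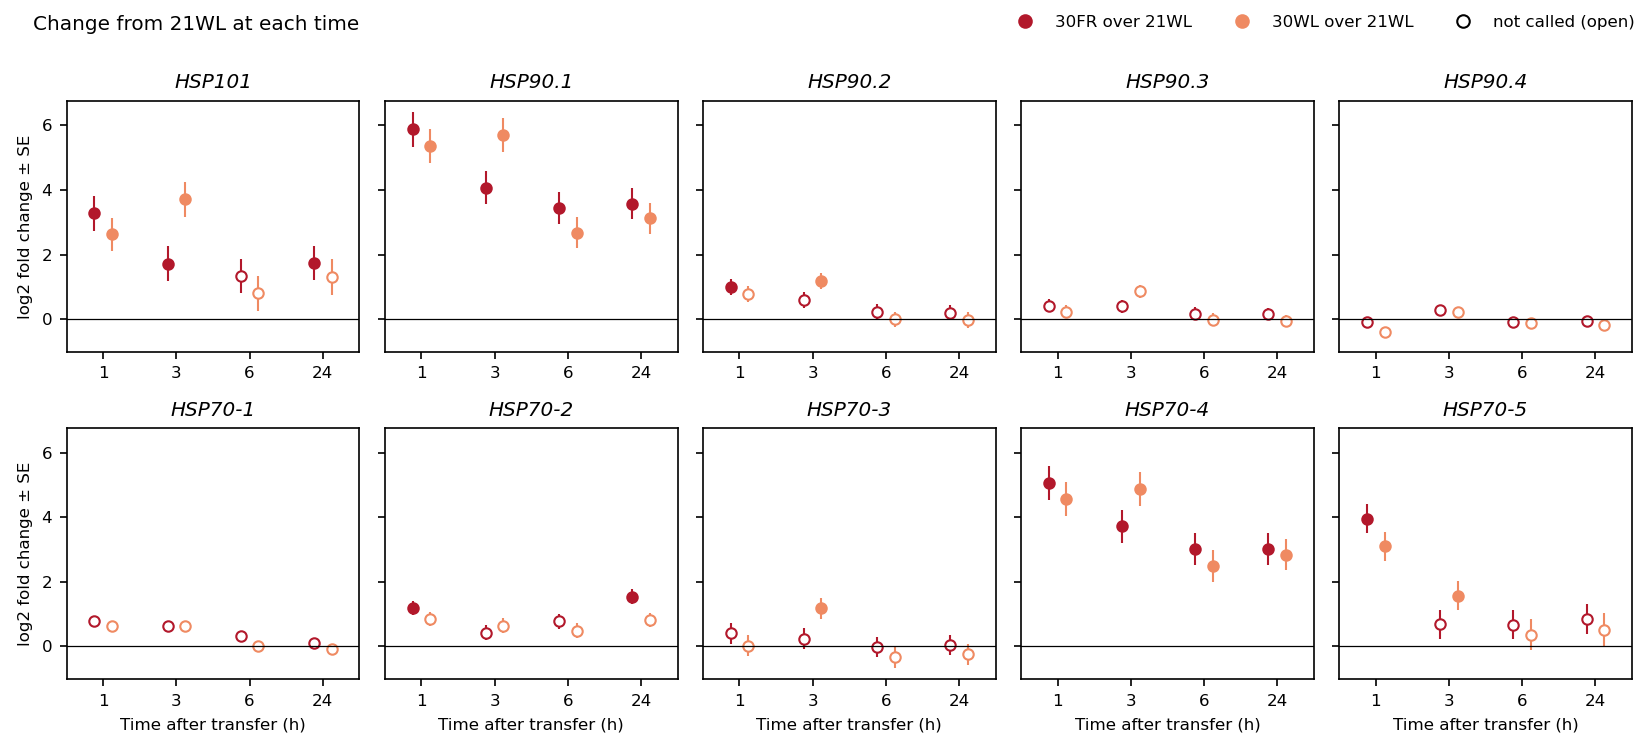
log2 fold change over 21WL with its standard error (edgeR) for each of the 10 members at 1, 3, 6 and 24 h, in 30FR and 30WL. Filled points were called (FDR under 0.05 and absolute log2 fold change over 1); HSP90.1 and HSP70-4 are filled at all 4 times in both conditions.

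HSP101, the disaggregase, was present at 242.5 and 259.5 CPM in 30FR, 157 and 163 CPM in 30WL, and 30.9 and 21.3 CPM in 21WL at 1 h. The groups did not overlap, and the lowest library at 30 °C was 5.06 times the highest at 21 °C. The log2 fold change over 21WL was 3.27 ± 0.53 (SE) in 30FR (edgeR FDR = 0.000103) and 2.62 ± 0.52 in 30WL (edgeR FDR = 0.00105). At 3 h it had 72.1 and 33.1 CPM in 30FR, 45.5 and 368.5 CPM in 30WL, and 15.6 and 16.3 CPM in 21WL. All warm libraries were above all cool ones, but the 2 libraries of each warm condition differed strongly, and the 30WL log2 fold change of 3.70 (edgeR FDR = 8.65e-05) became 1.51 without replicate 2 (edgeR FDR = 0.00242). At 6 h it had 31.1 and 40.5 CPM in 30FR, 22.0 and 26.8 CPM in 30WL, against 15.6 and 12.7 CPM in 21WL, and neither difference was called (log2 fold changes 1.34 and 0.80, edgeR FDR = 0.0740 and 0.388). At 24 h it had 45.6 and 50.05 CPM in 30FR, 31.9 and 38.3 CPM in 30WL, against 15.05 and 13.6 CPM in 21WL. It was called in 30FR (log2 fold change 1.74 ± 0.54, edgeR FDR = 0.0238) and not in 30WL (1.3 ± 0.55, edgeR FDR = 0.129). Fitted without replicate 2 of 30WL at 3 h, HSP101 had a standard error of 0.24 in place of 0.53 for 30FR at 6 h, and it was called at 6 h in 30FR (edgeR FDR = 0.000724) and at 24 h in 30WL (edgeR FDR = 0.00245). Leaving out any 1 of the 4 compared libraries ended the 30FR call at 24 h, with log2 fold changes of 1.67 to 1.82. The 30FR call at 3 h held in 1 of 4 such fits, with values of 1.05 to 2.16, and was lost without replicate 1 of 30FR and without either 21WL library.

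HSP90.1, the stress-inducible cytosolic HSP90, had the largest fold changes of the 10 genes at every time in both warm conditions. It was at 1161 and 1178 CPM in 30FR, 768 and 870 CPM in 30WL, and 21.2 and 18.8 CPM in 21WL at 1 h, and the lowest library at 30 °C was 36.2 times the highest at 21 °C. The log2 fold change was 5.87 ± 0.53 in 30FR (edgeR FDR = 6.71e-08) and 5.36 ± 0.52 in 30WL (edgeR FDR = 2.77e-07). At 3 h it had 294 and 154 CPM in 30FR, 220 and 1173 CPM in 30WL, and 13.8 and 12.9 CPM in 21WL, with log2 fold changes of 4.07 and 5.71, the second of which was 4.04 without replicate 2 of 30WL. At 6 h the levels were 117 and 180 CPM in 30FR, 70.7 and 103 CPM in 30WL, and 15.8 and 11.4 CPM in 21WL. At 24 h they were 194 and 213 CPM in 30FR, 129 and 168 CPM in 30WL, and 18.4 and 15.7 CPM in 21WL. The lowest warm library was thus still 4.46 times the highest cool library at 6 h and 7.02 times at 24 h, and the log2 fold changes at 24 h were 3.57 ± 0.49 in 30FR and 3.13 ± 0.48 in 30WL (edgeR FDR = 3.45e-05 and 0.000370).

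The other HSP90 genes had smaller fold changes than HSP90.1. HSP90.2 had 750 and 809 CPM in 30FR, 727 and 600 CPM in 30WL, and 380 and 395 CPM in 21WL at 1 h. Its log2 fold change was 1.01 ± 0.25 in 30FR, which was just past the fold limit and was called (edgeR FDR = 0.00387), and 0.78 ± 0.25 in 30WL, which passed the FDR alone (edgeR FDR = 0.0265). Without replicate 1 of 21WL or replicate 2 of 30FR the 30FR value was 0.97 or 0.95 and was not called. At 3 h in 30WL the replicates had 331 and 831 CPM, against 239 and 279 CPM in 21WL, and the call (log2 fold change 1.17) was lost without replicate 2 (0.35, edgeR FDR = 0.225). HSP90.3 had 425 and 475 CPM in 30FR, 421 and 373 CPM in 30WL, and 338 and 338 CPM in 21WL at 1 h, with log2 fold changes of 0.41 and 0.23 that did not pass the test (edgeR FDR = 0.115 and 0.431). Both HSP90.2 and HSP90.3 had log2 fold changes between -0.06 and 0.22 at 6 and 24 h, none of which passed.

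HSP90.4 was less abundant than HSP90.2 and HSP90.3. At 1 h it had 29.8 and 31.9 CPM in 30FR, 25.4 and 24.1 CPM in 30WL, and 33.8 and 31.3 CPM in 21WL. In 30WL both libraries lay below both of 21WL, and the log2 fold change of -0.39 ± 0.13 passed the FDR alone (edgeR FDR = 0.0274), the only negative value among the members to do so in a comparison with 21WL. Its values at the other times lay between -0.19 and 0.29 and did not pass.

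HSP70-4, a heat-inducible HSP70, followed HSP90.1 closely, with a Pearson r of 0.99 between the log2 levels of these 2 genes over the 32 libraries, which share their conditions. It was at 2041 and 2078 CPM in 30FR, 1323 and 1607 CPM in 30WL, and 70.6 and 52.9 CPM in 21WL at 1 h, with log2 fold changes of 5.06 ± 0.53 (edgeR FDR = 5.13e-07) and 4.57 ± 0.52 (edgeR FDR = 2.29e-06). At 3 h it had 496 and 270 CPM in 30FR, 336 and 1382 CPM in 30WL, and 29.2 and 29.1 CPM in 21WL, and the 30WL log2 fold change of 4.88 was 3.53 without replicate 2. At 6 h it had 180 and 246 CPM in 30FR, 137 and 160 CPM in 30WL, and 32.9 and 19.9 CPM in 21WL. At 24 h it had 334 and 353 CPM in 30FR, 251 and 354 CPM in 30WL, and 42.0 and 42.6 CPM in 21WL, where the log2 fold changes were 3.02 ± 0.49 and 2.84 ± 0.48 (edgeR FDR = 0.000184 and 0.000885). The groups did not overlap between temperatures at any time. In 21FR at 6 h the replicates were 14.2 and 41.7 CPM, the widest gap of this gene outside 30WL at 3 h.

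HSP70-5, the member with the lowest level in 21WL, was raised most at 1 h. It had 75.5 and 68.1 CPM in 30FR, 29.6 and 49.1 CPM in 30WL, and 5.67 and 3.65 CPM in 21WL at 1 h, with log2 fold changes of 3.96 ± 0.46 (edgeR FDR = 1.99e-06) and 3.10 ± 0.45 (edgeR FDR = 5.16e-05). At 3 h it had 13.5 and 8.31 CPM in 30FR, 6.21 and 33.2 CPM in 30WL, and 7.78 and 5.88 CPM in 21WL. The 30WL call at 3 h (log2 fold change 1.58, edgeR FDR = 0.0153) came from replicate 2: without it the value was -0.12 (edgeR FDR = 0.875). At 6 h it had 8.56 and 9.02 CPM in 30FR, 7.17 and 7.15 CPM in 30WL, and 6.32 and 4.72 CPM in 21WL. At 24 h it had 9.45 and 9.98 CPM in 30FR, 7.38 and 8.03 CPM in 30WL, and 6.21 and 4.54 CPM in 21WL. At both later times the warm libraries lay above the cool ones. The log2 fold changes of 0.37 to 0.85 did not pass the test in the fit of all 32 libraries.

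**Figure D3:**
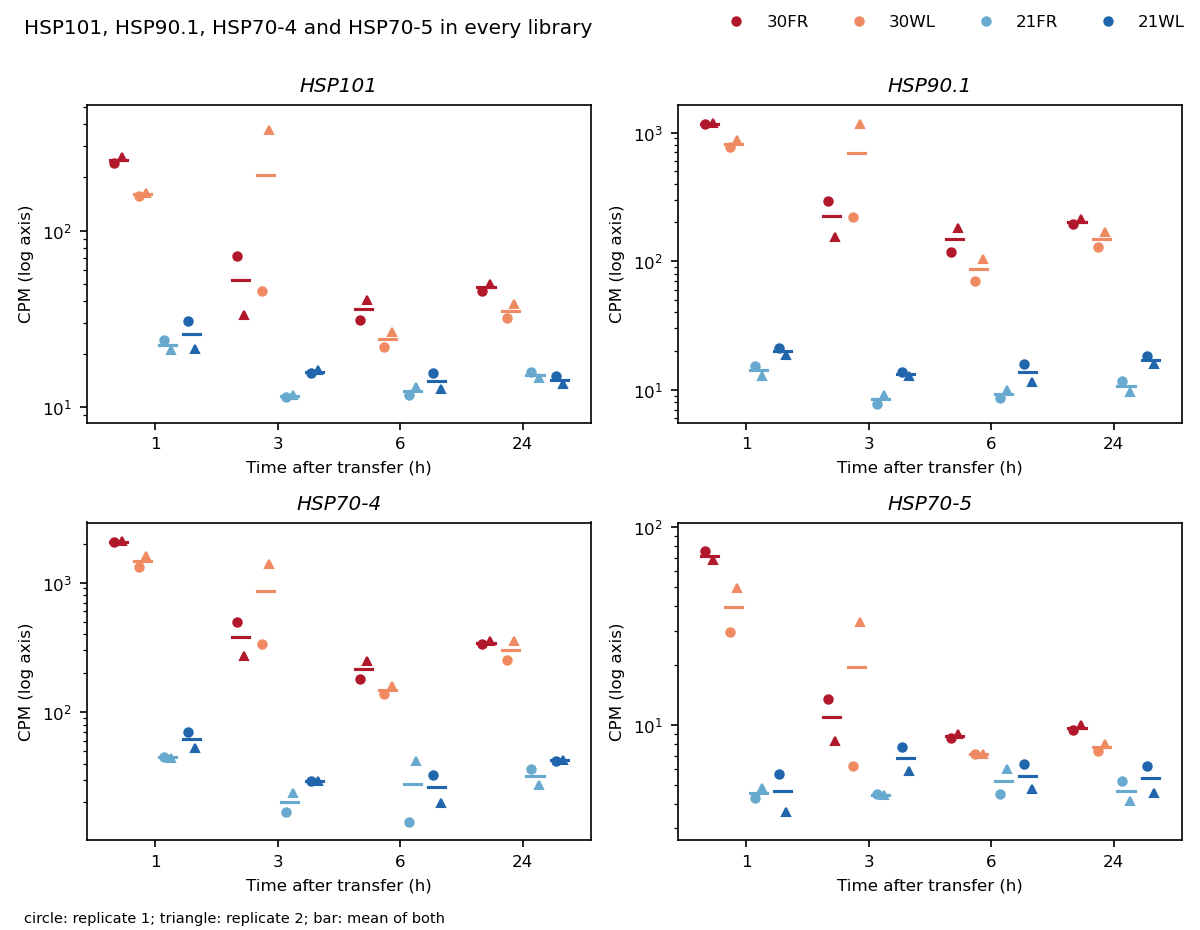
Level (CPM, log axis) of HSP101, HSP90.1, HSP70-4 and HSP70-5 in each library at 1, 3, 6 and 24 h, within a time as 30FR, 30WL, 21FR and 21WL; circles are replicate 1, triangles replicate 2 and bars their mean. For HSP90.1 all libraries at 30 °C lie above all at 21 °C at each time, and in 30WL at 3 h the triangle (1173 CPM) is far above the circle (220 CPM).

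HSP70-1 had 3042 and 2981 CPM in 30FR, 2849 and 2631 CPM in 30WL, and 1722 and 1794 CPM in 21WL at 1 h. Its log2 fold changes were 0.78 ± 0.14 in 30FR and 0.64 ± 0.14 in 30WL, under the fold limit but past the FDR alone (edgeR FDR = 0.000216 and 0.00178). All 4 warm libraries lay above all 4 cool ones at 1 h, the lowest at 1.47 times the highest. At 24 h it had 2117 and 2119 CPM in 30FR, 1796 and 1943 CPM in 30WL, and 1735 and 2188 CPM in 21WL, so that the groups overlapped, and the log2 fold changes of 0.11 and -0.07 did not pass.

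HSP70-2, its neighbour on chromosome 5, stood out at 24 h. It had 61.7 and 73.7 CPM in 30FR, 55.7 and 51.7 CPM in 30WL, and 28.2 and 30.9 CPM in 21WL at 1 h, with log2 fold changes of 1.20 ± 0.22 (edgeR FDR = 0.000343, called) and 0.86 ± 0.22 (edgeR FDR = 0.00726, under the fold limit). At 24 h it had 77.7 and 77.0 CPM in 30FR, 45.1 and 48.1 CPM in 30WL, and 22.6 and 30.5 CPM in 21WL, with log2 fold changes of 1.54 ± 0.22 (edgeR FDR = 5.94e-05, called) and 0.81 ± 0.23 (edgeR FDR = 0.0215, under the fold limit). Both 30FR libraries at 24 h were above both of 30WL, with a log2 difference of 0.73 ± 0.22 that did not pass the test over all genes (edgeR FDR = 0.108, unadjusted p = 0.00289). Fitted without replicate 2 of 30WL at 3 h, this difference was again 0.73 and passed the FDR alone (edgeR FDR = 0.0277), under the fold limit. In between, at 3 h and 6 h, its log2 fold changes over 21WL lay between 0.43 and 0.78 (0.07 for 30WL at 3 h without replicate 2), and the 30FR value at 6 h passed the FDR alone (edgeR FDR = 0.0161).

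HSP70-3 had 403 and 501 CPM in 30FR, 370 and 323 CPM in 30WL, and 339 and 343 CPM in 21WL at 1 h, and neither log2 fold change passed (0.41 and 0.02, edgeR FDR = 0.354 and 0.972). At 3 h in 30WL it had 188 and 659 CPM, against 177 and 196 CPM in 21WL, and the call (log2 fold change 1.18, edgeR FDR = 0.0126) became 0.01 without replicate 2 (edgeR FDR = 0.994). No other comparison with 21WL called this gene.

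**Figure D4:**
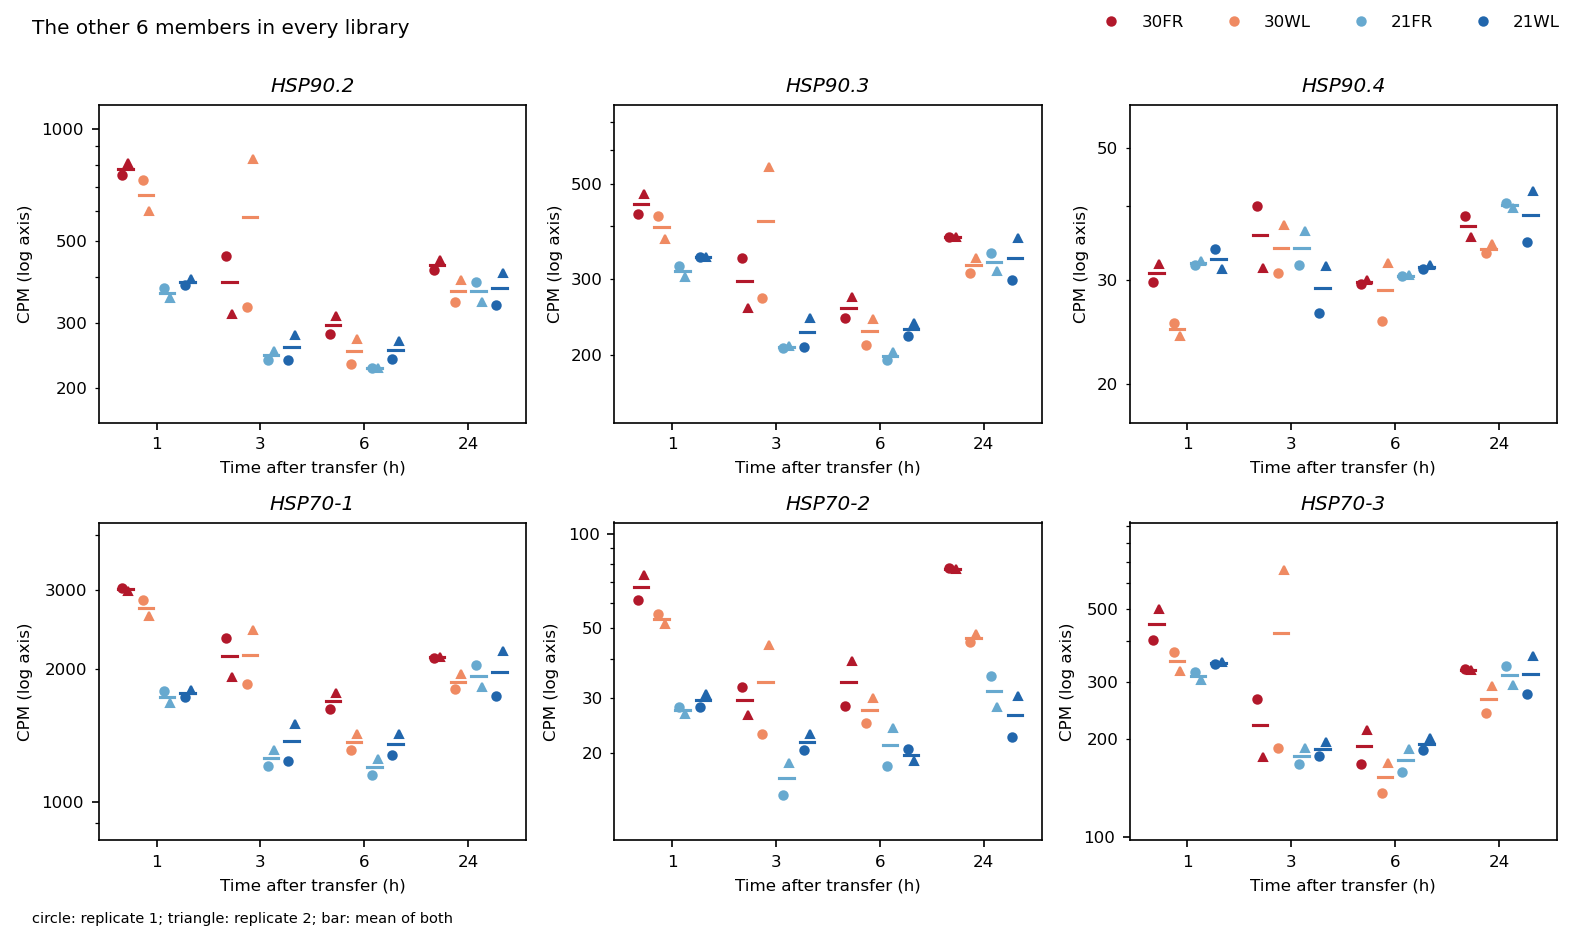
Level (CPM, log axis) of HSP90.2, HSP90.3, HSP90.4, HSP70-1, HSP70-2 and HSP70-3 in each library, laid out by time and within a time as 30FR, 30WL, 21FR and 21WL; circles are replicate 1, triangles replicate 2 and bars their mean. HSP70-2 at 24 h has 77.7 and 77.0 CPM in 30FR, above all other groups at that time.

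Summed over each family per kb of coding length, the HSP70 genes had 2877 and 2918 CPM per kb in 30FR, 2367 and 2385 in 30WL, against 1107 and 1138 in 21WL at 1 h. The HSP90 genes had 1112 and 1172 in 30FR, 911 and 877 in 30WL, against 361 and 366 in 21WL. At 24 h the HSP70 sums were 1466 and 1475 in 30FR, 1197 and 1353 in 30WL, against 1064 and 1342 in 21WL, so the 30WL and 21WL libraries overlapped. The HSP90 sums at 24 h were 480 and 500.0 in 30FR, 381.5 and 435 in 30WL, against 321 and 394 in 21WL, where again 30WL and 21WL overlapped and 30FR did not.

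The response was compared between times within the same fit, as the change in the fold over 21WL from that at 1 h. In 30FR, HSP70-5 was lower at 3, 6 and 24 h (log2 differences -3.27 ± 0.64, -3.29 ± 0.64 and -3.11 ± 0.65, edgeR FDR = 0.0144, 0.00911 and 0.00631), and HSP90.1 was lower at 6 and 24 h (-2.43 ± 0.65 and -2.30 ± 0.65, edgeR FDR = 0.0495 and 0.0359). The counts of members called lower were 1 at 3 h, 2 at 6 h and 2 at 24 h, against 0.347%, 0.571% and 1.29% of all genes. In 30WL, HSP90.1 and HSP70-5 were called lower at 6 h (-2.68 ± 0.65 and -2.73 ± 0.67, edgeR FDR = 0.0484 and 0.0493). The counts in 30WL were 0 at 3 h, 2 at 6 h and 0 at 24 h, against 0.0248%, 0.318% and 0.467% of all genes, with 0 and 2 called by DESeq2 at 3 h and 24 h. At an unadjusted p under 0.05, 1 member was lower and 3 were higher at 3 h, and 5 were lower at 24 h. Without replicate 2 of 30WL, 1 member was called lower at 3 h, HSP70-5 (-3.22, edgeR FDR = 0.00185), against 0.0645% of all genes. HSP70-1 passed the FDR alone in 30FR at 24 h (-0.67 ± 0.19, edgeR FDR = 0.0398). A fit without replicate 2 of 30WL at 3 h was also run. In 30FR it called 3, 4 and 4 members lower at 3, 6 and 24 h, against 0.452%, 0.635% and 1.29% of all genes. In 30WL it called 4 and 2 lower at 6 and 24 h, against 0.427% and 0.526%. HSP101, HSP90.1, HSP70-4 and HSP70-5 made up all 4 wherever 4 were called. These time comparisons share the 21WL and warm libraries of 1 h, and each call of HSP90.1 was lost when any 1 of its 8 libraries was left out. The calls of HSP70-5 held in 1 of 8 such fits for 30WL at 6 h and in 6 of 8 for 30FR at 3 h.

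Low R/FR at 21 °C called no member in 21FR over 21WL: the count was 0 at each of the 4 times by edgeR, by its likelihood ratio test and by DESeq2, with 0 members at an unadjusted p under 0.05, against 0.228%, 0.204%, 0.367% and 0.328% of all genes called in either direction at 1, 3, 6 and 24 h. HSP90.1 had 15.4 and 12.9 CPM in 21FR at 1 h, against 21.2 and 18.8 CPM in 21WL. It had 11.7 and 9.53 CPM in 21FR at 24 h, against 18.4 and 15.7 CPM in 21WL. Both 21FR libraries of this gene were below both of 21WL at all 4 times, with log2 fold changes of -0.50 ± 0.49, -0.66 ± 0.52, -0.55 ± 0.50 and -0.69 ± 0.50, none of which passed the test (lowest edgeR FDR = 0.876). Of the 10 members, 6, 5, 5 and 2 had both 21FR libraries below both of 21WL at 1, 3, 6 and 24 h, where 18%, 16.4%, 19% and 16.1% of all genes did.

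The levels in 30FR were also set against those in 30WL. Both 30FR libraries lay above both 30WL libraries for 10 of 10 members at 1 h, 0 at 3 h, 7 at 6 h and 9 at 24 h, where 16.7%, 20%, 19.1% and 23.8% of all genes did so. At 3 h both 30FR libraries lay above the single 30WL library that remained without replicate 2 for 4 members, as they did for 32.6% of all genes. The members were read in the same 4 libraries at each time, so these are not independent of each other. Log2 differences of 30FR over 30WL at 1 h ranged from 0.14 for HSP70-1 to 0.86 for HSP70-5, and the test called 0 of 10 members (lowest edgeR FDR = 0.514), with 2 at an unadjusted p under 0.05 and 0 by DESeq2, against 0.347% of all genes. At 6 h and 24 h all 10 values were again above 0, and 0 were called (0.213% and 0.452% of all genes), with 1 member at an unadjusted p under 0.05 at each time and 0 by DESeq2. At 3 h HSP101 was called lower in 30FR (log2 difference -1.99 ± 0.50, edgeR FDR = 0.0406), 1 of 10 members against 0.625% of all genes, and without replicate 2 of 30WL the value was 0.20 (edgeR FDR = 0.908), all 10 values were above 0 and 0 members were called.

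The fold between temperatures in low R/FR was as follows. In 30FR over 21FR, 6, 4, 3 and 4 members were called higher at 1, 3, 6 and 24 h, against 2.85%, 2.47%, 1.45% and 1.61% of all genes. In the fit of all 32 libraries, HSP101, HSP90.1 and HSP70-4 were called at all 4 times, HSP70-5 at 1 and 3 h, HSP70-2 at 1 and 24 h and HSP90.2 at 1 h. Fitted without replicate 2 of 30WL at 3 h, which these comparisons do not use, more members were called at 24 h. The median log2 fold change of the members at 24 h was then 0.66, against 0.65 with that library. The HSP101 calls at 6 h and 24 h held in 0 of 4 fits that left out 1 of the compared libraries, with log2 fold changes of 1.33 to 1.71 and 1.58 to 1.71, so that each of those fits called 2 members at 6 h and 3 at 24 h. At 3 h the call of HSP101 held in 3 of 4 such fits and that of HSP70-5 in 1 of 4. HSP90.1 had a log2 fold change of 6.37 ± 0.55 at 1 h and 4.26 ± 0.50 at 24 h (edgeR FDR = 3.54e-08 and 1.01e-05). Whether the response to 30 °C differed between the 2 light conditions was tested as the interaction of temperature and low R/FR. It called 0 of 10 members at each time by edgeR, by its likelihood ratio test and by DESeq2, with 0, 0, 1 and 0 members at an unadjusted p under 0.05, where 0%, 0%, 0% and 0.00993% of all genes were called. All 10 interaction values were above 0 at 1, 6 and 24 h, the values of HSP90.1 being 1.01 ± 0.65, 1.31 ± 0.66 and 1.14 ± 0.65, and 2 of 10 were above 0 at 3 h. Without replicate 2 of 30WL all 10 were above 0 at 3 h as well, up to 1.42 for HSP70-5, and 0 were called (lowest edgeR FDR = 0.981). The value of HSP101 was then 0.68, against -1.52 with that library.

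Other genes of the chaperone network were taken from lists of 23 co-chaperones, 12 relatives in organelles and 13 heat shock factors and related regulators, 12 of which passed the filter. Among the co-chaperones, which pass clients between HSP70 and HSP90 or set the pace of their ATP cycles, 11 of 23 were called higher in 30FR over 21WL and 9 of 23 in 30WL at 1 h, 4 and 9 at 3 h, 3 and 3 at 6 h, and 3 and 3 at 24 h. None was called lower. Without replicate 2, the count for 30WL at 3 h was 4 of 23. ROF2, an immunophilin that binds HSP90.1, had 1740 and 1705 CPM in 30FR, 1150 and 1465 CPM in 30WL, and 11.9 and 10.7 CPM in 21WL at 1 h (log2 fold changes 7.26 ± 0.44 and 6.86 ± 0.43, edgeR FDR = 2.25e-10 and 6.81e-10). HOP3, which bridges HSP70 and HSP90, had 716 and 664 CPM in 30FR, 506 and 561 CPM in 30WL, and 18.2 and 16.8 CPM in 21WL. HSA32, which in Arabidopsis prolongs acquired heat tolerance together with HSP101, had 201 and 136.5 CPM in 30FR, 131 and 165 CPM in 30WL, and 7.73 and 4.92 CPM in 21WL. HIP1, an HSP70-interacting protein, had log2 fold changes of 1.43 ± 0.12 in 30FR and 1.39 ± 0.12 in 30WL. At 24 h ROF2, HOP3 and HSA32 were the 3 co-chaperones still called in each warm condition, in the fit of all 32 libraries. Fitted without replicate 2 of 30WL at 3 h, more co-chaperones were called in both warm conditions at 6 and 24 h. The share of all genes called in each comparison is given above with the members.

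Among the organelle relatives, 9 of 12 were called higher in 30FR and 8 of 12 in 30WL at 1 h, 2 and 2 at 3 h (1 in 30WL without replicate 2), and 0 and 0 at 6 and 24 h. An unadjusted p under 0.05 was found for 8 in 30FR and 7 in 30WL at 6 h, and for 4 and 4 at 24 h. The mitochondrial HSP90.6 had 244 and 238 CPM in 30FR, 226 and 225 CPM in 30WL, and 86.2 and 86.3 CPM in 21WL at 1 h. Mitochondrial MTHSC70-2 and CLPB4, a relative of HSP101, and the endoplasmic reticulum BIP2 had log2 fold changes in 30FR of 1.81, 2.20 and 1.35 and in 30WL of 1.58, 1.79 and 1.15. In 30FR at 3 h, 2 of the 12 were called lower, endoplasmic reticulum BIP3, which was barely detected (0.243 and 0.127 CPM in 30FR, 0.692 and 1.14 CPM in 21WL), and plastid CPHSC70-2 (285 and 241 CPM in 30FR, 487 and 629 CPM in 21WL).

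Of the 12 heat shock factors and related regulators tested, the numbers called higher at 1, 3, 6 and 24 h were 5, 4, 5 and 4 for 30FR over 21WL, while for 30WL over 21WL they were 3, 7, 3 and 1, and none was called lower. The 7 at 3 h became 3 without replicate 2 of 30WL. HSFA2, which in Arabidopsis sustains the heat shock response, had 191 and 180 CPM in 30FR, 147 and 118 CPM in 30WL, and 11.3 and 5.39 CPM in 21WL at 1 h. At 3 h in 30WL it had 14.3 and 148 CPM, a gap between replicates of the same direction as that of HSP101. MBF1C, a heat-induced coactivator, was called in both conditions at all 4 times and had 83.0 and 74.9 CPM in 30FR, 58.1 and 66.7 CPM in 30WL, and 12.01 and 11.1 CPM in 21WL at 24 h. HSFB2A, a repressor-class factor, had log2 fold changes of 1.63 in 30FR and 1.27 in 30WL at 1 h. Fitted without replicate 2 of 30WL at 3 h, more of these 12 genes were called higher in both warm conditions at 24 h and in 30WL at 1 h. No gene of these 3 lists was called in 21FR over 21WL at any time by edgeR, and an unadjusted p under 0.05 was found for 0 of 23 co-chaperones, 0 of 12 heat shock factors and, at 6 h and at 24 h, 1 of 12 organelle relatives.

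**Figure D5:**
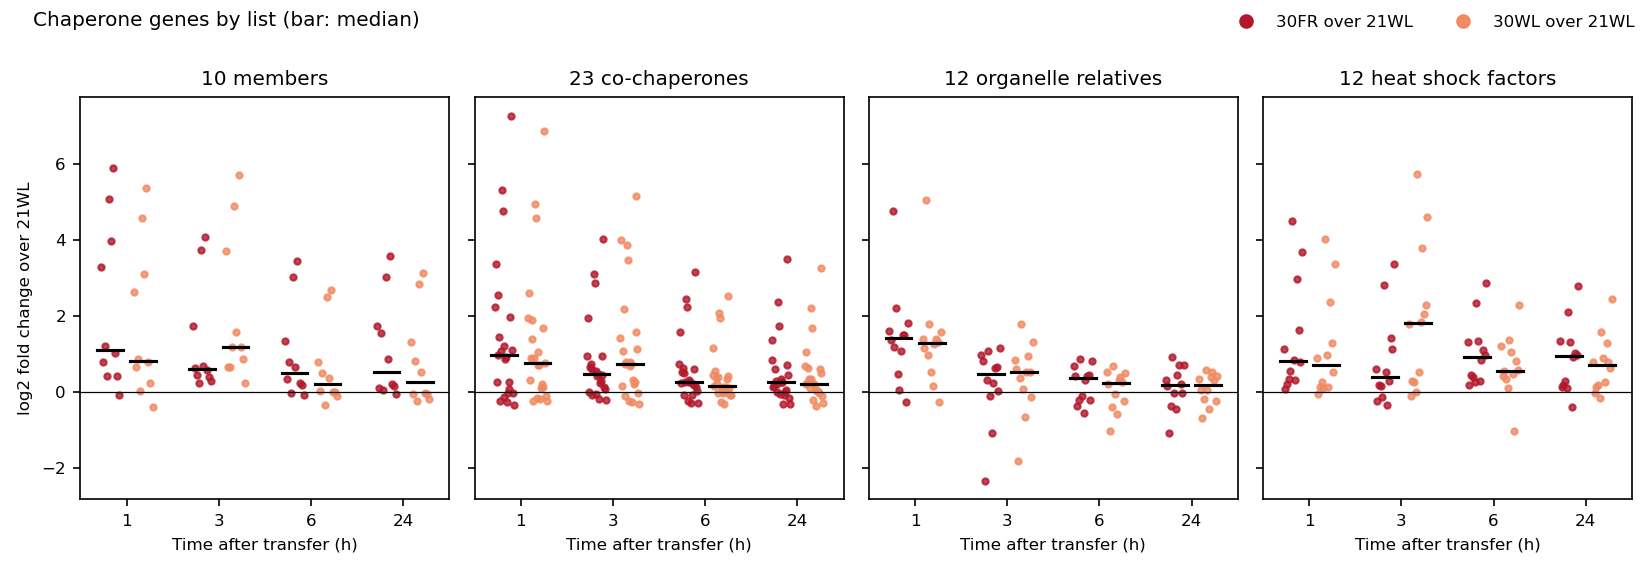
log2 fold change over 21WL in 30FR and 30WL at 1, 3, 6 and 24 h for the 10 members, 23 co-chaperones, 12 organelle relatives and 12 heat shock factors tested; each point is a gene and bars are medians. At 1 h the medians of the members are 1.10 in 30FR and 0.82 in 30WL, and those of the organelle relatives are 1.42 in 30FR and 1.28 in 30WL at 1 h, and 0.18 in both at 24 h.

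The genes whose log2 levels followed HSP101 most closely over the 32 libraries, out of all genes tested, were AT3G07090 (Pearson r = 0.987), CLPB4 (0.981), HSFA2 (0.978), AT1G66080 (0.975) and AT1G59860 (0.975). For HSP70-1 they were HSP70-15 (0.958), HSP60 (0.951), HSP90.2 (0.951), the J-domain protein J3 (0.938) and HD2C (0.934). Among the members, HSP90.4 was the one least like the rest, with r between -0.30 and 0.34. All of these describe libraries that share the same 16 groups, so no p is given.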

How the data were processed

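Whole-seedling poly(A) RNA (TruSeq Stranded mRNA, single-end reads of 50 bases) was aligned by the authors to TAIR10 with STAR 2.5.4 and counted per gene with HTSeq 0.6.0 (strand-specific, intersection-strict), and the authors used edgeR 3.16.5. CASAVA 1.8.2 is named in the submitters' processing notes. The deposited counts are whole reads per gene. The authors also deposited normalized values (a signal, each count times 1 factor per library) for 19718 genes, against 33602 in the count table. For those genes, 100% of values were whole reads (tolerance 0.1) and 100% equalled the count table. Run on this smaller set of genes, the test called 792 genes for 30WL over 21WL at 1 h, against 805 from the count table. The ratio of the normalized values of the members to the CPM used here was 1.00 to 1.01.

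Of all entries of a library in the count table, alignments to several places made up 10.5 to 50.4%, reads with no feature 2.47 to 3.58% and ambiguous reads 0.262 to 0.529%. The 5 summary lines that name no gene were left out of library sizes. Counts were analysed in R 4.3.3 with edgeR 4.0.16 (limma 3.58.1): genes over 1 CPM in at least 2 libraries, TMM factors, 1 quasi-likelihood fit with 16 group coefficients over 32 libraries, and contrasts between them, with FDR over 20145 genes. Standard errors are the absolute unshrunken log2 fold change over the square root of F. The script was tested on simulated data. Alternatives were DESeq2 1.42.0 and its size factors, the likelihood ratio test, no filter, each time alone, a replicate block, FDR alone, other TMM factors and leaving out each library. A fit without replicate 2 of 30WL at 3 h, list counts and overlaps without it, recovered reads and the 300-base window were chosen after seeing the data. Coordinates, gene models and sequences come from RefSeq (TAIR10.1), read with Python 3.11.15, Biopython 1.88, numpy 2.4.6 and pandas 2.3.3; figures used matplotlib 3.10.9. log2 levels for correlations are log2(CPM + 0.5).

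The members and lists were chosen with earlier results of these data known. Named were all 10 members, up to 4 genes per list called in 30WL over 21WL at 1 h with the smallest FDR, any gene of a list called in the opposite direction, and the 5 genes most like HSP101 and HSP70-1. The study counts a separately grown pool of seedlings as a biological replicate. With 2 per group, p-values rest on a spread shared across groups.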

Additional observations from a re-analysis of the deposited data

Results flagged for a closer look

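The fold over 21WL differed between 1 h and a later time, by a test of that difference, for 3 members. In 30WL at 6 h against 1 h the log2 difference was -2.68 for HSP90.1 and -2.73 for HSP70-5. In 30FR it was -3.27, -3.29 and -3.11 for HSP70-5 at 3, 6 and 24 h, -2.43 and -2.30 for HSP90.1 at 6 and 24 h, and -0.67 for HSP70-1 at 24 h. Groups of 2 libraries are too small for a check of outlying samples, so the gap between the 30WL libraries at 3 h is described in the results and not here.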

How the results depend on the processing

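The heat response of HSP101, HSP90.1, HSP70-4 and HSP70-5 at 1 h kept its direction and its call under all alternatives run. Across alternatives, 2705 single values or orders stayed on their side of the threshold, 69 lost a call, 21 gained one and 2 reversed. A further 3 values with no test moved. Sign changed without a call in either fit for 64 of 2750 recomputed log2 fold changes. This tally left out values not called in the fit of all 32 libraries for 30FR over 30WL, 30FR over 21FR and the time comparisons. New calls in those are thus not in it. Of the counts of members called or holding an element, 399 stayed at or near the main count and 53 moved away. Calling by the FDR alone gave 7 members for 30WL over 21WL at 1 h, against 11.8% of all genes. It gave 5 for 30FR over 21FR at 6 h, against 11%. Fitting each time alone gave 3 members for 30WL over 21WL, 0 for 30FR over 30WL and 2 for 30FR over 21FR at 3 h. For 30FR over 30WL at 3 h, 2 members were called by the likelihood ratio test, without the filter and by DESeq2, as were 2, 2 and 2 for the lower response to 30WL at 24 h. Whether the replicate numbers pair the samples was not settled: correlations of deviations between groups of the same time were of both signs (-0.516 to 0.498). With the replicate block 0 members were called for 30FR over 30WL at 3 h and 1 for the lower response to 30WL at 6 h. Lower responses were also counted in a fit without replicate 2 of 30WL at 3 h. To 30WL there were 4 and 2 members at 6 and 24 h, against 0.427% and 0.526% of all genes. To 30FR there were 3, 4 and 4 at 3, 6 and 24 h, against 0.452%, 0.635% and 1.29%. The heat shock element was found in 0 members in the 250-base window and in 6 in the 300-base window. Apart from the windows, the FDR rule and the left-out libraries, whose construction sets the change, the cause was not tested. No share of all genes is given for each time alone, the likelihood ratio test, no filter, DESeq2 and the replicate block. Those counts therefore do not show whether the members moved or the calls over all genes did.

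Leaving out each library in turn gave 3 to 8 members for 30WL over 21WL at 3 h, 0 to 6 for 30FR over 30WL at 3 h, 2 to 4 for 30FR over 21FR at 3 h, 2 at 6 h and 3 at 24 h, and 0 to 2 for the interaction at 3 h. For a response lower than at 1 h it gave 0 to 1 in 30WL at 3 h, 0 to 1 in 30WL at 6 h, 0 to 1 in 30FR at 3 h, and 1 in 30FR at both 6 h and 24 h. For HSP70-5 in 30WL over 21WL at 3 h the log2 fold change ranged from -0.12 without replicate 2 of 30WL to 2.29 without replicate 1, and for HSP101 in 30FR over 30WL at 3 h from -2.82 without replicate 1 to 0.20 without replicate 2. Those fits assume that the lone library of a group varies like the other groups. Their counts are given without the share of all genes called, so they do not separate a change in the members from one over all genes.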
